A study of Mus musculus with 10 samples.

Results

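A set of 38 genes of the hypoxia response and of glycolysis was followed in bulk RNA-seq of 4T1 tumours, which grow from a mouse mammary carcinoma cell line. They were selected by gene symbol, without a measured value in the rule, and all 38 were found by symbol among the 18047 genes of the deposited table. They comprise 13 enzymes of the glycolytic path and 25 other genes of the hypoxia-inducible factor (HIF) pathway. KO denotes 5 libraries of tumours from 4T1 cells in which the gene of the genotype label was knocked out, and WT denotes 5 libraries of tumours from wild-type 4T1 cells. WT2 and WT5 share the library number 170, and whether they come from 1 tumour is not given in the sources used here, so n counts libraries. Both groups grew for 3 weeks in BALB/c mice, received no agent beyond growth in the animal, and were frozen and sectioned before total RNA was extracted. Whether the KO line is 1 clone, and the age of the mice, are not given in the sources used here. No label ties a library to a named animal, so the p-values refer to variation among these 10 libraries, which may in part be technical.

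When oxygen is plentiful, prolyl hydroxylases of the Egln family mark the HIF alpha subunits for destruction, and when oxygen falls the stabilised subunits join Arnt and bind DNA at hypoxia response elements. HIF target genes raise glucose uptake, glycolytic flux and lactate export, restrain the entry of pyruvate into mitochondria, and direct vessel growth, pH control, mitophagy and collagen processing. Solid tumours commonly express many of these genes, either from low oxygen or from growth signalling, and most glycolytic enzymes are also made at high levels in other tissues, with isoforms particular to skeletal muscle.

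The core letters of a hypoxia response element are ACGTG or GCGTG, and both were searched on both strands in RefSeq promoter windows of GRCm38.p6, which run from 250 bases before a gene's start to 50 after it. Windows were found for 33 of the 38 genes, and those of Ndrg1, Epas1, Bnip3l, Ero1l and Slc2a3 were not matched. ACGTG occurred in 27 of the 50 windows of these genes (54%), against 6447 of all 32851 windows (19.6%). GCGTG occurred in 27 of 50 (54%), against 32.4% of all windows. Counted by gene, 8 of 13 glycolytic enzymes and 15 of 20 other genes held ACGTG in at least 1 window, against 5886 of all 27025 genes (21.8%). A gene with several windows has more chances of a match. The following stretches are shown because they hold at least 2 separate matches before a RefSeq start (Pgk1, Ldha, Hif1a) or belong to the gene with the largest difference of the mitochondrial group (Bnip3). None overlaps an annotated exon. The RefSeq starts of Ldha and Hif1a lie inside the gene as GENCODE M21 draws it, because a longer transcript begins upstream, so these stretches precede an internal start and fall in an intron of that transcript. They read 5′ to 3′ on the gene's strand, and capitals mark ACGTG or its reverse complement CACGT. Overlapping matches on the 2 strands merge to CACGTG, the E-box that other transcription factors such as Myc also bind.
Pgk1: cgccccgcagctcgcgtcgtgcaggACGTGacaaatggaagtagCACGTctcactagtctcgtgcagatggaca
Ldha: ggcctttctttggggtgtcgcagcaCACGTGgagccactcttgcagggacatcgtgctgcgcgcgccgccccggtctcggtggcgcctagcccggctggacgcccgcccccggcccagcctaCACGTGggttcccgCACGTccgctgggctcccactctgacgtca
Hif1a: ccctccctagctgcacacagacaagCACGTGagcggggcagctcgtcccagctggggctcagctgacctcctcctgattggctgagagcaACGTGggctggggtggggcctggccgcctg
Bnip3: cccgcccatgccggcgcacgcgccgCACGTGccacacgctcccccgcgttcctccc
On GRCm38.p6 these lie at chrX:106186925-106186998 (plus strand), chr7:46845634-46845799 (plus strand), chr12:73907707-73907826 (plus strand) and chr7:138909584-138909639 (minus strand). The 4 genes printed all had higher fitted values in KO (below), and the choice does not link the letters with direction. Stretches with 1 match, as in Bnip3, also preceded starts of Pfkm, Aldoa, Pgam1, Ddit4 and Mxi1, with lower fitted values. The same held for Pfkfb3, Egln3, P4ha1 and P4ha2, with higher ones. A match describes letters in a window and not binding, which was not measured.

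The values are read counts that the authors normalized for library size, and a log2 difference below is KO minus WT on log2(normalized count + 1), with its standard error (SE). The reads behind a library numbered between 8609756 (KO1) and 19934428 (WT4), and every one of the 38 genes passed the filter of a mean of 10 normalized counts, as did 17975 genes in all. Keratins of the carcinoma were present throughout, with Krt8 between 3519 and 6182 normalized counts in KO and between 4340.3 and 7830.4 in WT. All 9 carcinoma markers had lower fitted values in KO (median log2 difference -0.96), with summed levels of 13061 to 18107 in KO and 18159 to 31227 in WT. RNA of neighbouring tissue differed between libraries. The 12 skeletal muscle markers summed to 477 to 7112 in KO and 253 to 138052 in WT, with WT2 far above the rest. The 8 keratinocyte markers summed to 31.4 to 50.6 in KO and 34 to 6404 in WT, held by WT3, WT5 and WT2, with Krt1 and Flg2 at 0 in the other 7 libraries. Neutrophil markers had higher fitted values in KO for 7 of 7 (median 0.63) and endothelial markers for 5 of 8 (median 0.049). In bulk tissue, fewer cells of a type and less RNA per cell cannot be told apart, and the part of these marker differences in the values below was not tested beyond the fits with a muscle score or without WT2, WT3 and WT5.

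None of the 38 genes passed the threshold between KO and WT tumours. limma called 0 of them at a Benjamini-Hochberg adjusted p of 0.05 (lowest adjusted p = 0.72, Ero1l), and edgeR and DESeq2, run on the recovered reads, also called 0. Over all 17975 genes limma called 1, which is 0.00556%. At an unadjusted p under 0.05 there were 2 of 38, Ero1l and Slc2a3, both higher in KO, and the same limit took in 6.49% of all genes. The KO and WT libraries overlapped for every one of the 38, while 1.42% of all genes had groups that did not overlap. Fitted values lay above 0 for 27 of the 38 genes and below 0 for 11, and 49.0% of all genes lay above 0. Many of the 38 were high or low in the same libraries (below), so their signs are not independent. Whether 27 is an excess was not tested. The median log2 difference of the 38 was 0.24, beside -0.0073 over all genes, and single genes ran from -0.93 (Pfkm) to 0.65 (Ero1l).

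**Figure D1:**
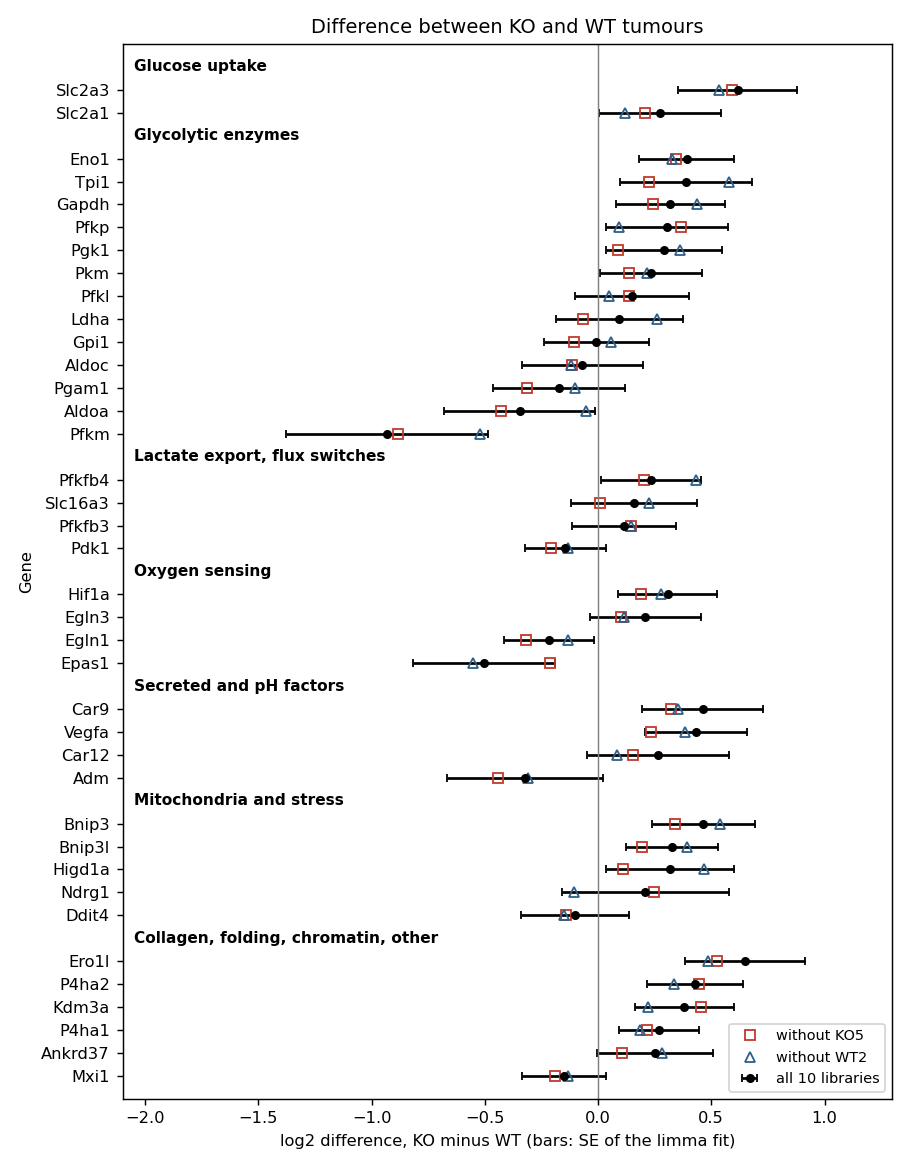
Log2 difference between KO and WT tumours (x axis, KO minus WT) for each of the 38 genes (y axis, grouped by role). Black points are the fit on all 10 libraries with bars of 1 SE, red squares leave out KO5 and blue triangles leave out WT2. Slc2a3 and Ero1l lie farthest right and Pfkm farthest left, and the symbol without WT2 moves Pfkm to -0.52 and Aldoa to -0.052.

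The glucose transporters were both higher in KO by their fitted values. Slc2a3 (chr6:122727809-122801640, ENSMUSG00000003153) encodes the high-affinity transporter GLUT3. It had 119, 135, 121, 96.1 and 127 normalized counts in KO1 to KO5, against 52.4, 61, 142, 90.5 and 66.5 in WT1 to WT5. The KO libraries lay close together, above 4 of the WT libraries and below WT3. The log2 difference was 0.62 ± 0.26 (SE; unadjusted p = 0.0354, limma adjusted p = 0.746). limma with sample weights, which gives less weight to libraries that fit their group poorly, called Slc2a3 at 0.97 (adjusted p = 0.0409), in a fit that called 2.27% of all genes, and over all alternatives its adjusted p ran from 0.0409 to 0.999. Slc2a1 (chr4:119108711-119137983), which encodes GLUT1, the widely expressed transporter, had 1502, 2415, 1668, 1399 and 2137 normalized counts in KO, against 1164, 966, 2358, 2188 and 1212 in WT. WT1, WT2 and WT5 were below every KO library, while WT3 and WT4 fell inside the KO range. Its log2 difference was 0.27 ± 0.27 (limma adjusted p = 0.94), with 0.12 without WT2, 0.16 without KO2, 0.44 without WT3 and 0.41 without WT4. Per kilobase of exon, Slc2a3 made up 3.15 ± 0.429% of the summed level of the 2 transporters in KO and 2.49 ± 0.435% in WT tumours (SD, n = 5 each), so nearly all the transporter RNA of the pair was Slc2a1 in both groups.

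Among the 13 glycolytic enzymes 8 had a higher fitted value in KO and 5 a lower one, with a median log2 difference of 0.15 and 0 at an unadjusted p under 0.05. Of the 5 lower values 4 belonged to the upper part of the path, down to aldolase. Gpi1, which turns glucose 6-phosphate into fructose 6-phosphate, stood at -0.0071 ± 0.23. Its sign turned under several alternatives, with values from 0.046 (upper quartile scaling) to 0.29 (sample weights). Of the 3 phosphofructokinase genes, which encode subunits of the enzyme of the committed step, Pfkp (platelet type) stood at 0.30 ± 0.27 and Pfkl (liver type) at 0.15 ± 0.25. Without WT2 they stood at 0.094 and 0.047, and Pfkl turned to -0.12 without WT2, WT3 and WT5. Pfkm (chr15:98092589-98132451), the muscle type, had 224, 396, 186, 330.1 and 229.6 normalized counts in KO, against 460.4, 1574, 179, 419 and 585 in WT. All 5 KO libraries were below 4 of the WT libraries, WT3 was the lowest of the 10, and WT2 stood far above the rest. The fitted log2 difference was -0.93 ± 0.44 (unadjusted p = 0.0562, limma adjusted p = 0.779), the largest in size of the 38. WT2 and WT3 were also the libraries with the most and the least skeletal muscle RNA. Without WT2 the difference was -0.52, with a muscle score as a covariate it was -0.45, and the lower sign was the same under every alternative run.

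**Figure D2:**
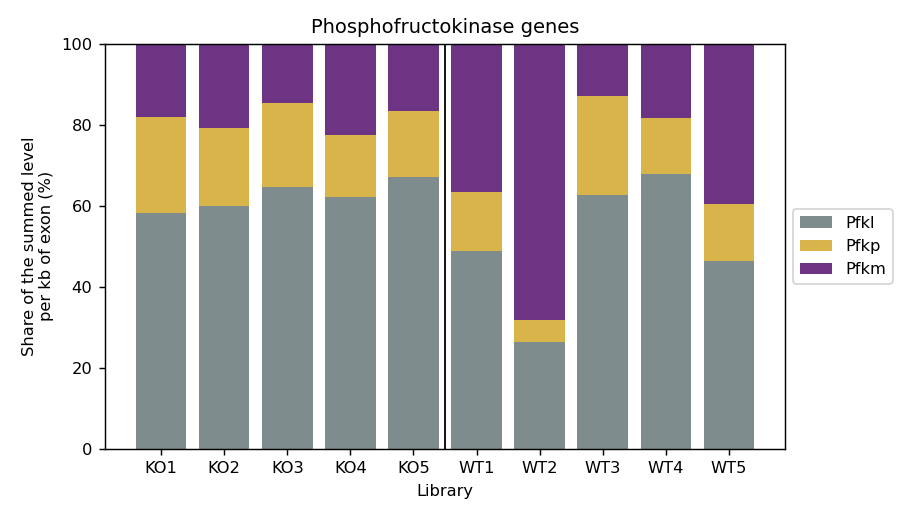
Share (y axis, %) of Pfkl, Pfkp and Pfkm in the summed level of the 3 phosphofructokinase genes, with normalized counts divided by exon length in kilobases, in each KO and WT library (x axis). The Pfkm share is 68.3% in WT2, and between 14.5 and 22.5% in the KO libraries.

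The make-up of the phosphofructokinase genes differed most in WT2. Pfkm held 18.4 ± 3.22% of their level per kilobase in KO and 35.1 ± 21.8% in WT tumours (SD, n = 5 each). Across WT1 to WT5 its share was 36.5, 68.3, 12.8, 18.3 and 39.5%, so WT3 and WT4 lay inside the KO range or below it. Without WT2 the WT mean was 26.8%. Muscle isoforms outside the 38 were also highest in WT2, where Pgam2, the muscle mutase, held 77% of the mutase level and Eno3, the muscle enolase, 65.1% of the enolase level.

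Aldolase splits fructose bisphosphate into triose phosphates, and Aldoa (chr7:126795234-126800751) is the form of muscle and most other tissues. Its values are given in full because WT2 stood out when they were seen. It had 5541, 9959, 6085, 8379.5 and 9647 normalized counts in KO, against 7660.2, 22151, 6812, 12057 and 6476 in WT. WT2 had more than any other library, and KO1 and KO3 fewer than any WT library. This gave a log2 difference of -0.35 ± 0.33 (limma adjusted p = 0.938), -0.052 without WT2 and 0.051 with sample weights, where the sign turned. Aldoc, the brain form, made up 2.92% of the aldolase level per kilobase in KO and 2.66% in WT, and its log2 difference was -0.071 ± 0.27.

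The enzymes of the lower part of the path mostly had higher fitted values in KO, with none past the threshold. Tpi1, which interconverts the triose phosphates, stood at 0.39 ± 0.29, and Gapdh, which oxidises glyceraldehyde 3-phosphate, at 0.32 ± 0.24. Pgk1 (chrX:106187100-106203699), the kinase that makes the first ATP of the payoff phase and whose promoter stretch is printed above, had 3597, 6182, 4114, 6468 and 9956 normalized counts in KO, against 4578, 5621, 4318, 4494 and 4301 in WT. The WT libraries lay close together with WT2 the highest of them, KO1 and KO3 were below all of them, and KO2, KO4 and KO5 were above all of them. Its log2 difference came to 0.29 ± 0.26 (limma adjusted p = 0.92), with 0.089 without KO5 and 0.46 without KO1. Pkm, which encodes pyruvate kinase, split in the same way: KO1 and KO3, at 10608 and 10882 normalized counts, were below every WT library, and KO2, KO4 and KO5, at 17129.7, 15434 and 18413, were above every WT library, which ran from 11024 to 15352. Pkm stood at 0.23 ± 0.23. Eno1, the widely expressed enolase, stood at 0.39 ± 0.21 (limma adjusted p = 0.814), the largest higher value among the enzymes, with all 5 KO libraries above the WT median. Pgam1, the mutase before it in the path, stood at -0.17 ± 0.29.

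Ldha (chr7:46841475-46855627), which reduces pyruvate to lactate, had the smallest of the higher fitted values. It had 4594, 6843, 4199, 7850.2 and 9945 normalized counts in KO, against 4988, 9429.5, 4335, 6412 and 5700.2 in WT. KO5 was the highest library, WT2 the next and KO3 the lowest. The log2 difference was 0.093 ± 0.28 (limma adjusted p = 0.979), and its sign turned without KO5 (-0.068). Pfkm and Aldoa were set aside after their values were seen, and 8 of the 11 enzymes left had higher fitted values and their median was 0.23.

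Of 4 genes of lactate export and flux switching 3 had higher fitted values in KO, and none passed the threshold. Slc16a3, which encodes the lactate exporter MCT4, stood at 0.16 ± 0.28. Pdk1, the kinase that shuts pyruvate dehydrogenase, stood at -0.14 ± 0.18, with means of 709.6 ± 91.1 normalized counts in the KO tumours and 793 ± 157 in WT tumours (SD, n = 5 each). Pfkfb3 and Pfkfb4 encode the enzymes that set the level of fructose 2,6-bisphosphate, the activator of phosphofructokinase. Pfkfb3 stood at 0.12 ± 0.23. Pfkfb4 (chr9:108991778-109032228) had 214, 255, 291, 244 and 276 normalized counts in KO, against 165, 375, 201, 207 and 185 in WT. All KO libraries were above 4 of the WT libraries and below WT2. The fitted log2 difference was 0.23 ± 0.22 (limma adjusted p = 0.933), with 0.43 without WT2 and 0.13 without WT1.

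**Figure D3:**
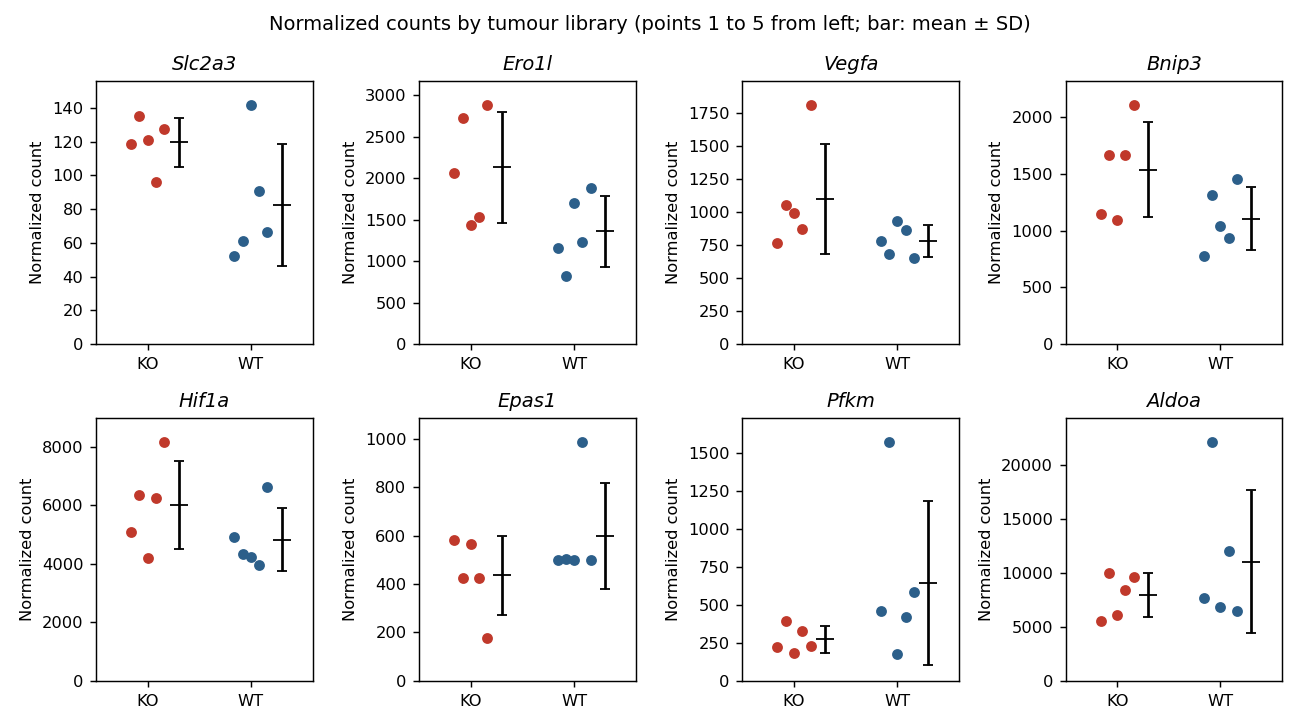
Normalized counts (y axes, linear and starting at 0) of 8 genes in KO (left, red) and WT (right, blue) tumours, 1 point per library with libraries 1 to 5 from left to right, and bars of mean ± SD (n = 5 each). Groups overlap in every panel, with KO5 highest for Vegfa, Bnip3, Hif1a and Ero1l and WT2 far above the others for Pfkm and Aldoa.

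The alpha subunits of the pathway had fitted values of opposite sign. Hif1a (chr12:73901375-73947530), which encodes HIF-1 alpha, had 5095, 6356, 4197, 6236 and 8178 normalized counts in KO, against 4915, 4353, 4248, 3957 and 6635 in WT. KO5 was the highest library, 4 of the KO libraries were above WT1 to WT4, and WT5 was above all KO libraries but KO5. This gave a log2 difference of 0.31 ± 0.22 (limma adjusted p = 0.89), and 0.19 without KO5. HIF-1 alpha is controlled mainly through the stability of the protein, which RNA does not show. Epas1 (chr17:86753700-86833410), which encodes HIF-2 alpha and is prominent in endothelial cells, had 583, 427, 567, 425 and 179 normalized counts in KO, against 498, 502, 500.1, 988 and 499.6 in WT. WT1, WT2, WT3 and WT5 were nearly equal, KO1 and KO3 were above these 4, WT4 was far above and KO5 far below the rest. Its log2 difference came to -0.50 ± 0.31 (limma adjusted p = 0.874), with -0.21 without KO5 and -0.31 without WT4. The endothelial markers summed to 3239 in KO5 and 3987 in WT4, inside the ranges of the other libraries, but they split within the list. Emcn (501 in KO5, 174 in WT4) and Egfl7 (586 and 232) were higher in KO5 than in WT4. The others were lower, among them Cdh5 (527 and 1257) and Vwf (47.1 and 299), whose lowest library was KO5 and highest WT4. The fibroblast markers summed to 36925 in KO5, the lowest of the KO libraries, and to 103140.0 in WT4, the highest of all. Col1a1 alone gave 51256 of the WT4 sum. The fibroblast markers did not all follow the sum. Dcn (3655 in KO5, 1526 in WT4) and Lum (1283 and 721) were higher in KO5 than in WT4, and the others were lower. The adipocyte markers summed to 41.9 in KO5, the lowest of all, and to 2786 in WT4. The part of these cell types in the Epas1 values was not tested.

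Egln1, which encodes the main oxygen-sensing hydroxylase, averaged 885 ± 161 normalized counts in the KO tumours and 1044 ± 264 in WT tumours (SD, n = 5 each), a log2 difference of -0.22 ± 0.20. Egln3, a hydroxylase gene that HIF itself induces, averaged 1575 ± 384 in the KO tumours and 1391 ± 443 in the WT tumours, at 0.21 ± 0.24. Neither passed the threshold (limma adjusted p = 0.925 and 0.951).

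Genes of vessel growth and pH control included Vegfa, whose product drives the growth of blood vessels. Vegfa (chr17:46016993-46032369) had 766, 1054, 988, 871 and 1809 normalized counts in KO, against 784, 680.3, 935, 866 and 650.2 in WT. KO5 was far above the other libraries, and KO2 and KO3 were also above every WT library. The log2 difference was 0.43 ± 0.22 (limma adjusted p = 0.799), and 0.24 without KO5. Adm, which encodes the vessel-widening peptide adrenomedullin, had a value of the other sign, -0.32 ± 0.34. Car9 (chr4:43506966-43513729), the membrane carbonic anhydrase used as a marker of tumour hypoxia, had 512, 992, 631, 652 and 1089.5 normalized counts in KO, against 433, 401, 588, 935 and 481 in WT. KO2 and KO5 were above every WT library, and WT4 was above KO1, KO3 and KO4. The fitted log2 difference was 0.46 ± 0.27 (limma adjusted p = 0.851). Car12, a related anhydrase, stood at 0.26 ± 0.31.

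Of 5 genes of mitochondria and stress 4 had higher fitted values in KO. Bnip3 (chr7:138890836-138909519), a mitophagy receptor, had 1146, 1666, 1094, 1664 and 2106 normalized counts in KO, against 779, 1316, 1044, 938 and 1451 in WT. KO2, KO4 and KO5 were above every WT library, and all KO libraries were above WT1, WT3 and WT4. This gave a log2 difference of 0.47 ± 0.23 (unadjusted p = 0.063, limma adjusted p = 0.787). With sample weights Bnip3 was the other of the 38 genes called, at 0.81 (limma adjusted p = 0.0452), and over all alternatives its adjusted p ran from 0.0452 to 0.999. Bnip3l, its paralogue, stood at 0.33 ± 0.20 and Higd1a, a small protein of the respiratory chain, at 0.32 ± 0.28. Ndrg1, a stress-responsive gene, stood at 0.21 ± 0.37, with WT libraries that ran from 1172 to 5526 normalized counts around the KO range of 2716 to 4267. Ddit4, an inhibitor of mTORC1, stood at -0.10 ± 0.24.

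The remaining 6 genes act in collagen processing, protein folding, chromatin and transcription, and 5 had higher fitted values in KO. Ero1l (chr14:45283087-45318771), the oxidase that forms disulfide bonds in the endoplasmic reticulum, had 2066, 2726, 1438, 1531 and 2882 normalized counts in KO, against 1154, 826, 1705, 1227 and 1883 in WT. KO1, KO2 and KO5 were above every WT library, and KO3 and KO4 lay between WT4 and WT3. Its log2 difference came to 0.65 ± 0.27 (unadjusted p = 0.0296, limma adjusted p = 0.72), the largest higher value of the 38. P4ha1 and P4ha2 encode collagen prolyl hydroxylase subunits, and stood at 0.27 ± 0.18 and 0.43 ± 0.21. Kdm3a, a histone demethylase, stood at 0.38 ± 0.22, with all 5 KO libraries above the WT median. Ankrd37, which encodes an ankyrin repeat protein and is a HIF-1 target, stood at 0.25 ± 0.26, and Mxi1, an antagonist of Myc, at -0.15 ± 0.19.

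**Figure D4:**
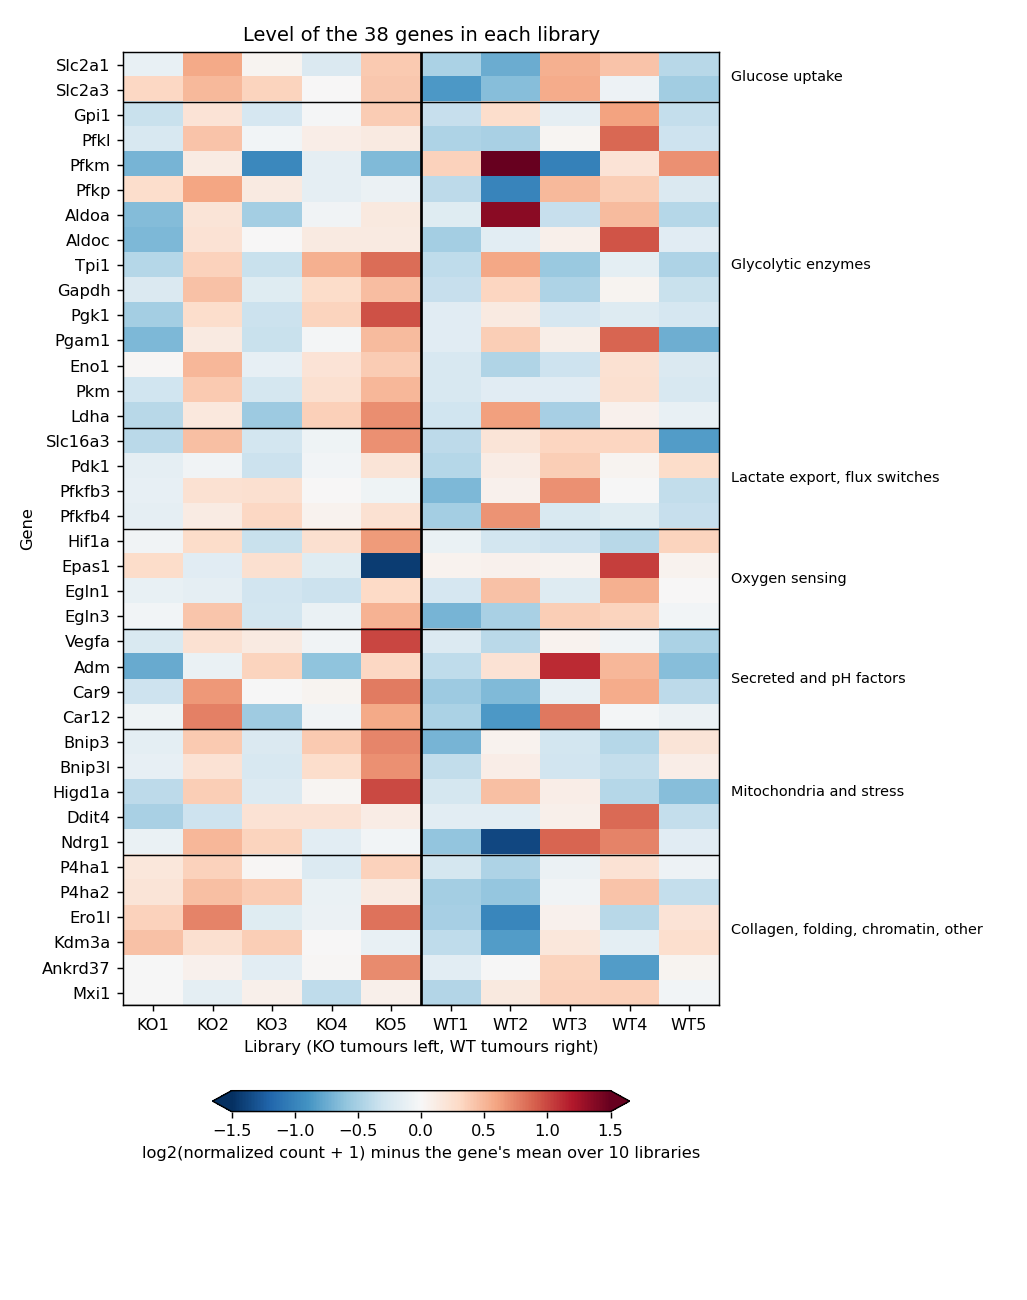
Level of each of the 38 genes (rows, grouped by role) in the 5 KO libraries (left) and the 5 WT libraries (right), as log2(normalized count + 1) minus the gene's mean over the 10 libraries, where colours saturate at 1.5. KO5 is red for most rows outside Epas1, WT1 is blue for most rows, and the darkest red cells are Pfkm and Aldoa in WT2.

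Levels of the 38 genes also varied between libraries of the same genotype. KO5 had the highest level of the 10 libraries for 16 of the 38 genes, WT4 for 8 and WT3 for 6. WT2 had the lowest level for 11 genes and WT1 for 8, and within the KO group KO1 was lowest for 17. The SD on the log2 scale was larger in WT than in KO for 27 of the 38 genes, with medians of 0.35 in KO and 0.45 in WT. These counts were not taken over all genes, so whether they are particular to the 38 is not known. As a mean deviation from each gene's mean, the 13 enzymes stood at 0.34 in KO5 and 0.31 in KO2 but at -0.37 in KO1 and -0.29 in KO3. In WT they stood at 0.35 in WT4 and 0.27 in WT2, and between -0.26 and -0.24 in the other 3 libraries. Neither group was uniform, since each held libraries with high and with low values for the enzymes. Libraries also differed in how their deviations over all genes correlated with GC content. The correlation was -0.29, -0.068, 0.073, -0.043 and -0.029 in KO1 to KO5, and -0.15, 0.18, -0.0044, 0.52 and -0.40 in WT1 to WT5. Its part in the enzyme levels was not tested beyond the fit with GC content and length removed.

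The enzymes were then set beside the 25 other genes of the pathway. The median log2 difference was 0.15 for the 13 enzymes (8 higher, 5 lower) and 0.26 for the 25 other genes (19 higher, 6 lower), beside -0.0073 for all genes tested. The mean deviation of the enzymes averaged 0.025 ± 0.33 in KO and -0.025 ± 0.31 in WT tumours (SD, n = 5 each). That of the other genes averaged 0.099 ± 0.20 in KO and -0.099 ± 0.26 in WT. The mean deviation of the other genes minus that of the enzymes averaged 0.074 ± 0.21 in KO and -0.074 ± 0.36 in WT, with ranges of -0.19 to 0.29 in KO and -0.50 to 0.45 in WT that overlap almost wholly. Whether the 2 sets differ was not tested. The medians came to 0.33 for the enzymes and 0.32 for the other genes once GC content and length were removed from each library, so their order was not the same under every alternative. Single libraries also set these values: the enzyme median was 0.052 without WT1, 0.066 without KO2 and 0.28 without WT4, and without WT4 that of the other genes was 0.28 as well. With WT2 and WT5 averaged as 1 sample the medians were 0.16 for the enzymes and 0.23 for the other genes.

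**Figure D5:**
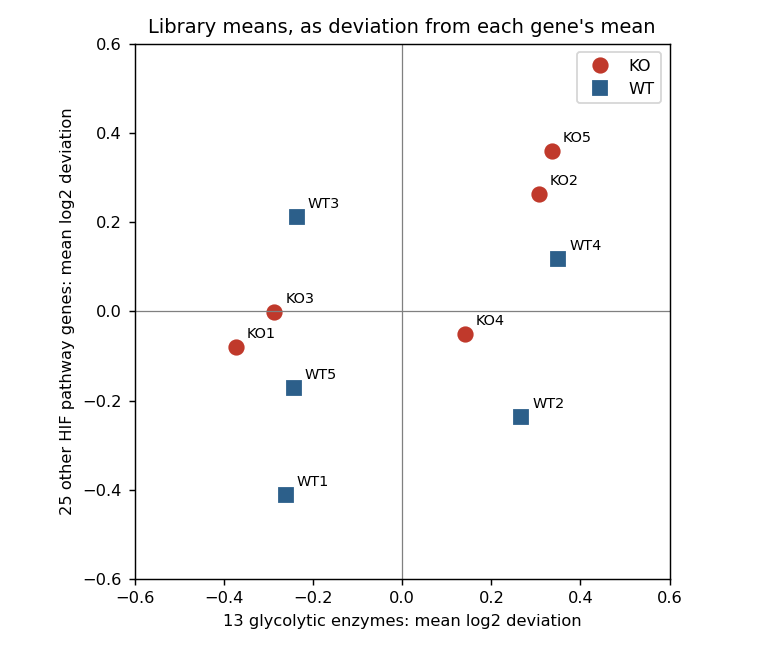
Mean log2 deviation of the 13 glycolytic enzymes (x axis) and of the 25 other HIF pathway genes (y axis) in each library, relative to each gene's mean over the 10 libraries, with KO as red circles and WT as blue squares. KO2, KO5 and WT4 lie at the upper right, and WT1, WT5 and KO1 at the lower left, with KO1 the farthest left. KO3 lies at the left near the horizontal line, and WT2 and WT3 fall off the diagonal on opposite sides.

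In single libraries the 2 sets did not always go together. WT2 was high for the enzymes (0.27) and low for the other genes (-0.24), and WT3 was the reverse, with -0.24 for the enzymes and 0.21 for the other genes. WT2 is the library with the most muscle RNA and WT3 that with the least muscle and the most keratinocyte RNA. In WT1, WT4 and WT5 the muscle markers summed to 13344, 6656 and 14091, and the enzymes stood at -0.26, 0.35 and -0.24. In KO1 to KO5 the muscle sums were 749, 7112, 477, 5347 and 4506, and the enzymes stood at -0.37, 0.31, -0.29, 0.14 and 0.34. The part of muscle RNA in these values was not tested beyond the fits that follow. With the muscle score as a covariate the medians were 0.12 for the enzymes and 0.23 for the other genes. Without WT2, WT3 and WT5 they were 0.12 and 0.29.

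The library names of KO5 and WT1 to WT4 carry the prefix RESUB, whose meaning the labels leave unstated. Among the RESUB libraries, of which only KO5 is from a KO tumour, the medians were 0.29 for the enzymes and 0.50 for the other genes. Among the libraries without the prefix, of which only WT5 is from a WT tumour, they were 0.26 and 0.15. Ero1l stood at 1.28 with the prefix and -0.0049 without it, Bnip3 at 1.07 and -0.088, and Hif1a at 0.91 and -0.30, so these 3 turned sign. Slc2a3 stood at 0.66 and 0.80, Vegfa at 1.16 and 0.49, and Pfkm at -1.07 and -1.10, which kept theirs. In both fits the spread of 1 group cannot be measured and is taken from the other.

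Compared per kilobase of exon, the level of the 38 genes spanned a wide range. By the mean over all 10 libraries Gapdh was the most abundant, with 4494 ± 989.7 normalized counts per kb in KO and 3608 ± 865 in WT tumours (SD, n = 5 each). It was followed by Aldoa, Pkm, Pgk1, Eno1, Tpi1 and Ldha, whose neighbours in this order overlap between libraries, and all 7 are glycolytic enzymes. The order differed by group, since Aldoa, which was highest in WT2, averaged 2722 per kb in KO, below Pkm at 2898, and 3789 in WT, above Gapdh. Hif1a came next, with 1019.7 ± 254 per kb in KO and 818 ± 182 in WT. Among the hypoxia targets outside glycolysis Bnip3 averaged 678 per kb in KO and 488 in WT, Car9 337 in KO and 246 in WT, and Vegfa 256 in KO and 183 in WT. Slc2a3 was the lowest, with 16.5 ± 2.02 per kb in KO and 11.4 ± 4.98 in WT. Gapdh and several other glycolytic genes have processed pseudogenes, and 15 of the 38 genes overlap the exons of another annotated gene, so their counts are uncertain where reads could be split. Of the genes given in full above, Slc2a1, Pfkm, Aldoa, Hif1a, Car9 and Bnip3 are among these 15. Among the larger shared stretches with a protein-coding partner are the 748 bases of Pfkp with Pitrm1 and up to 349 of Ankrd37, which overlaps Lrp2bp and Ufsp2.

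Other genes of the same pathways gave a mixed picture. Of 21 further genes of glycolysis and linked glucose metabolism 20 were tested, among them Fbp1, Gys1, Gbe1 and Pdha1, which are not glycolytic enzymes. In KO 6 had higher and 14 lower fitted values (median -0.15, with 49.0% of all genes higher). limma called 0, with 3 at an unadjusted p under 0.05, where 6.49% of all genes were. WT2 was the highest library for several of the lower ones. Without WT2, Eno3 moved from -1.02 to -0.48, Ppp1r3c from -1.54 to -0.63 and Pdk2 from -0.75 to -0.27. Eno2, the neuronal enolase, had 211 ± 74.4 normalized counts in the KO tumours and 125 ± 65.1 in WT tumours (SD, n = 5 each), a log2 difference of 0.81 ± 0.33. Pgam2 had 55 ± 24.1 in KO and 375 ± 629 in WT, at -1.63 ± 0.73, and -0.81 without WT2. Pdk3, another pyruvate dehydrogenase kinase, had 380.1 ± 75.9 in KO and 538 ± 98 in WT, at -0.50 ± 0.18, and -0.51 without WT2.

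Of 38 further hypoxia genes 37 were tested, 20 higher and 17 lower (median 0.057, with 49.0% of all genes higher), and limma again called 0, with 4 at an unadjusted p under 0.05 beside the 6.49% of all genes. Hilpda, a HIF target that blocks the breakdown of stored lipid, had 148, 325, 169, 213 and 534 normalized counts in KO, against 159.6, 116, 144, 101 and 97.5 in WT. KO2, KO3, KO4 and KO5 were above every WT library, and KO1 was below WT1 alone. The log2 difference was 1.02 ± 0.32 (unadjusted p = 0.00707, limma adjusted p = 0.589). Plod2, a collagen lysyl hydroxylase, averaged 2113 ± 469 in KO and 1394 ± 428 in WT, at 0.62 ± 0.23, which was 1.15 among the RESUB libraries and turned to -0.10 among the others. Pgf, placental growth factor, averaged 142 ± 43.7 in KO and 90.6 ± 41.4 in WT, at 0.69 ± 0.30. Hif1an, the asparaginyl hydroxylase that limits HIF activity, had 601, 505, 657, 561 and 622 normalized counts in KO, against 729, 1006, 671, 916 and 682 in WT. The KO values all lay under the lowest WT value, a lack of overlap that 1.42% of all genes had in one direction or the other, and the log2 difference of -0.43 ± 0.17 did not pass (limma adjusted p = 0.7).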

How the data were processed

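Total RNA of frozen 4T1 tumour sections was column-purified, cleared of DNA and rRNA and sequenced, per the labels' protocols. The authors deposited a signal table of normalized read counts per Ensembl gene. GRCm38 and bcl2fastq 2.17 are named in the submitters' processing notes. The aligner, the counter, and whether strand and molecular identifiers were used are not given in the sources used here. All values (100%) are whole multiples, within 0.0001 of a read, of what 1 read is worth in their library, so whole reads were recovered.

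Samples were grouped by the genotype label, and all carry the batch label 1. The targeted gene is not reported here. Symbols, coordinates and exon lengths are those of GENCODE M21 on GRCm38 (17961 of 18047 IDs had a symbol), and promoters are from RefSeq. The comparison of KO and WT used limma 3.58.1 under R 4.3.3, on log2(normalized count + 1) with a trend of variance on level, for the 17975 genes with a mean of at least 10 (72 fell below), two-sided, with Benjamini-Hochberg adjustment over all of them at 0.05. On this scale the change of genes with low counts is understated. As alternatives, the recovered reads were tested with edgeR 4.0.16, which called 1 gene, and with DESeq2 1.42.0, which called 121. The fit was tested on simulated data. Precision comes from the spread between libraries.

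Genes and lists were chosen with earlier results of these data known. Values in every library are given for genes with an unadjusted p under 0.05 or groups that do not overlap, for the largest difference of each role group, and for Hif1a, Epas1, Vegfa, Car9, Slc2a1, Pgk1 and Ldha. Aldoa was added after its values were seen. From the further pathway lists, those with an unadjusted p under 0.05 are named (at most the 8 with the smallest p). Marker lists for adipocytes, macrophages, fibroblasts, red blood cells and T cells gave median log2 differences of -1.58, 0.19, -0.026, 0.13 and 0.53. Alternatives changed the pseudocount, filter, scaling, test, weights, covariates and libraries. Plots were made in Python 3.11.15 using matplotlib 3.10.9.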

Additional observations from a re-analysis of the deposited data

Results flagged for a closer look

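Within the KO and WT groups 7 of 76 sets of 5 libraries held a library far from the others on the log2 scale. For normally distributed values the rule flags about 1 set in 20. The sets come from the same 10 libraries and are not independent, so whether 7 is an excess was not tested. Epas1 was far below the other KO libraries in KO5, at 179 normalized counts, and far above the other WT libraries in WT4, at 988. Ankrd37 stood at 129 in KO5 and Aldoc at 165 in KO1, above and below the other KO libraries. Among the WT libraries Pgk1 was high in WT2, at 5621, as was Pfkfb4, at 375. Pkm was high in WT4, at 15352. The library nearest to each came to 425 and 502 for Epas1, 82.5 for Ankrd37, 264 for Aldoc, 4578 for Pgk1, 207 for Pfkfb4 and 11608 for Pkm.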

How the results depend on the processing

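Of the 38 genes 19 had the same sign under all 27 alternatives (17 higher, 2 lower) and 19 turned at least once. The number with a higher fitted value ran from 26 to 34, a count added after the data were seen. The median of the enzymes ran from 0.052 to 0.38 and that of the other genes from 0.15 to 0.50, the highest within the RESUB libraries, where it moved by more than the spread between libraries. Without KO5 the log2 difference was 0.23 for Tpi1, 0.14 for Pkm, 0.20 for Bnip3l and 0.11 for Higd1a, and without WT2 0.22 for Kdm3a and 0.084 for Car12. The other genes' median minus the enzymes', also added after the data were seen, ran from -0.11 to 0.21, and was -0.00027 without WT4. The cause of the turns was not tested.

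limma called 1 gene of all tested. The count was 121 with DESeq2, 408 with sample weights, 70 with the muscle score as a covariate, 52 within the libraries without the RESUB prefix, and 0 within the RESUB libraries, without WT2, WT3 and WT5, and with WT2 and WT5, which share the library number 170, averaged. It was 0 to 3 with 1 library left out, with 3 without WT2 and 0 without KO1 to KO4 or WT3 to WT5, each alone. At an unadjusted p under 0.05 the fits with 0 calls held 212 higher and 470 lower genes within the RESUB libraries, 696 and 539 without WT2, WT3 and WT5, 560 and 732 with the pair averaged, and 286 to 710 higher and 466 to 811 lower with 1 library left out. With the replicate block 1 gene was called and the medians were 0.15 for the enzymes and 0.26 for the other genes. Same-numbered KO and WT libraries had correlations of deviations of 0.017, 0.099, 0.52, 0.026 and -0.23, and only number 3 correlated best with its own number. These correlations show no general pairing by number, but cannot exclude a shared origin that the labels do not state.

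Signs turned within the libraries without the RESUB prefix for Hif1a (-0.30), Bnip3 (-0.088), Bnip3l (-0.065), Ero1l (-0.0049), Ankrd37 (-0.059), Ldha (-0.0067), Gpi1 (0.26), Aldoa (0.17), Aldoc (0.092), Pgam1 (0.51), Adm (0.36) and Ddit4 (0.27). Within the RESUB libraries they turned for Gpi1 (0.29), Aldoc (0.051), Pgam1 (0.18), Pdk1 (0.17), Pfkfb3 (-0.083) and Egln1 (0.16). With the prefix as a term they turned for Gpi1 (0.27), Aldoc (0.072), Pgam1 (0.34), Adm (0.16) and Ddit4 (0.11).

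Sample weights turned Gpi1 (0.29), Aldoa (0.051), Aldoc (0.38), Pgam1 (0.095), Pdk1 (0.17), Ddit4 (0.014) and Mxi1 (0.12). The muscle covariate turned Gpi1 (0.073), Pfkfb3 (-0.0071) and Ndrg1 (-0.091). Removing GC content and length turned Gpi1 (0.12), Aldoc (0.013) and Ddit4 (0.015). Upper quartile scaling turned Gpi1 (0.046). Leaving out WT2, WT3 and WT5 turned Pfkl (-0.12) and Pdk1 (0.13). With 1 library left out the value ran from -0.10 to 0.14 for Gpi1, -0.21 to 0.16 for Aldoc, -0.38 to 0.025 for Pgam1, -0.068 to 0.26 for Ldha, -0.032 to 0.28 for Slc16a3, -0.038 to 0.30 for Pfkfb3, -0.20 to 0.10 for Ddit4 and -0.11 to 0.45 for Ndrg1.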
